A study of Mus musculus with 16 samples.

Results

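The genes described here encode the proteasome, its regulators and its assembly factors. They were taken as all protein-coding genes of the count table whose symbol begins with Psm, then a letter from a to g and a number, which gave 50 genes of 55487 gene IDs. By role they were 7 alpha ring subunits (Psma1 to Psma7), 4 structural beta ring subunits (Psmb1 to Psmb4), 3 constitutive catalytic subunits (Psmb5, Psmb6 and Psmb7) and the 3 immunoproteasome subunits that take their places (Psmb8, Psmb9 and Psmb10). The regulatory particle contributed 6 ATPases (Psmc1 to Psmc6) and 11 other subunits of the Psmd series, 17 in all. The remaining members were 3 chaperones of the regulatory base (Psmd5, Psmd9 and Psmd10), 4 chaperones of core assembly (Psmg1 to Psmg4), 5 activator genes (Psme1, Psme2, Psme2b, Psme3 and Psme4), the inhibitor gene Psmf1, the tissue-specific Psma8 and Psmb11, and Psmc3ip. Psmc3ip matches the name rule but encodes a recombination factor and no proteasome subunit.

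Mouse skin cells were sorted on CD45, the surface protein of leukocytes, and sequenced as bulk RNA, as CD45+ cells (the immune fraction) and CD45- cells (the stromal fraction). Stretched skin had been under hypobaric pressure, which pulls on the skin by suction, and was taken 6 h later, while control skin was unstretched tissue of the same area. The 16 libraries formed 4 groups of 4, called the control and stretched libraries of the stromal and immune fractions, and each library carries the number in its title. The labels give no strain, sex, age or genotype and do not say whether samples came from separate animals, so the p-values rest on the spread between libraries, which may be technical.

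Total counts ran from 2645421 to 26944965 per library, and in both fractions the stretched libraries were deeper than the controls without overlap. The summed level of 8 leukocyte markers was 9.06 to 32.0 CPM (counts scaled to a fixed library total) in the stromal libraries and 4942 to 14030 CPM in the immune libraries, and 7 fibroblast markers summed to 37790 to 63460 CPM in the stromal and 1347 to 9467 CPM in the immune libraries. Macrophage and dendritic markers summed to 11120 to 24310 CPM in the immune controls and 24590 to 61170 CPM in the stretched immune libraries, and neutrophil markers reached 33110 CPM in immune stretched 2. Olfactory and vomeronasal receptor genes, for which skin cells are not known, took 5942 CPM in immune control 4, 408 in stromal stretched 7 and 200.3 in stromal stretched 8, against 17.8 to 68.8 CPM elsewhere. These libraries stand apart, so counts that rest on them are given with and without them, and the part of cell makeup in any difference below was not tested. In bulk samples fewer cells of a type and less RNA per cell cannot be told apart.

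The proteasome is the barrel-shaped protease that degrades ubiquitin-tagged proteins. Alpha rings gate the barrel, beta rings carry the proteolytic sites inside it, and the regulatory particle recognises ubiquitin chains, unfolds substrates with its ATPase ring and feeds them into the core. Leukocytes, and other cells under interferon gamma, replace the constitutive catalytic subunits with immunoproteasome subunits, which changes the peptides offered to T cells on class I molecules. Psmb8 replaces Psmb5, Psmb9 replaces Psmb6 and Psmb10 replaces Psmb7, and the activator of Psme1 and Psme2 products belongs to the same interferon response.

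Promoter windows were available for 42 of the 50 members in the RefSeq table (GRCm38.p6), covering 250 bases before and 50 after the start of transcription. Windows were not found for Psma8, Psmb7, Psmd7, Psmb2, Psmc3, Psmg2, Psmb1 and Psmd3. The upstream stretches of 2 constitutive catalytic genes and of 1 immunoproteasome gene are shown because these genes carry the comparison of the 2 kinds of core, and they are printed 5′ to 3′ on the gene's strand without annotated exon bases. Capitals mark a match to the antioxidant response element core (TGACNNNGC), the element through which the transcription factor Nfe2l1 is known to raise proteasome genes.
Psmb5, chr14:54618023-54618245, minus strand: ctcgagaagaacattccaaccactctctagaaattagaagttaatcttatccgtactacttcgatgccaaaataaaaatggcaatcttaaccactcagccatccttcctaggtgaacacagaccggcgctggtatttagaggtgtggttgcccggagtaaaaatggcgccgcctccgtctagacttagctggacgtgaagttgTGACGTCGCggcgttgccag
Psmb6, chr11:70525107-70525356, plus strand: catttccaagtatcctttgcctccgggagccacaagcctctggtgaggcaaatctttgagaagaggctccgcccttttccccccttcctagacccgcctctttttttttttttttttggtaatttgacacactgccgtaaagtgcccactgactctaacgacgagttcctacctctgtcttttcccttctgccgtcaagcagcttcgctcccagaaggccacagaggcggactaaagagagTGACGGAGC
Psmb10, chr8:105938445-105938642, minus strand: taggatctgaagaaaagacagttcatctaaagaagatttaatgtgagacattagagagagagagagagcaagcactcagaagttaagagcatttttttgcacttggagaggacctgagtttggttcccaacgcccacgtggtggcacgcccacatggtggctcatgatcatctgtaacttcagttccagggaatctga
The TGACNNNGC match of Psmb6 ends at the base before the start, that of Psmb5 begins 47 bases before it, and the Psmb10 stretch holds no capitals because none of the searched letters occur in it. Searched on both strands, TGACNNNGC was found in 5 members, Psmb5, Psmb6, Psmc6, Psmd9 and Psmd12, which is 11.9% of the members with a window against 11.5% of 27025 genes. The sites of the other members lie in these 30-base stretches, where capitals on Psmc6 and Psmd12 are the reverse complement of the motif.
Psmc6, chr14:45329587-45329616, plus strand: ccagccagtaGCTAAGTCAggcattgctca
Psmd9, chr5:123228149-123228178, plus strand: atctagccggTGACCCCGCccacttccaag
Psmd12, chr11:107479278-107479307, plus strand: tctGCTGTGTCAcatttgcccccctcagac
The interferon gamma activated site core (TTCNNNGAA) was found in Psmb8 and Psmg1, 4.76% of the members against 8.13% of all genes, and the Psmb8 match lies inside the annotated span of that gene.
Psmb8, chr17:34198088-34198117, plus strand: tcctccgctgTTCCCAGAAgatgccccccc
The interferon-stimulated response element core was found in Psmb3, Psmd4 and Psmd9 (7.14% against 3.46%), and CCAAT in 15 members (35.7% against 37.5%). A match of letters is a description and not a site of binding. Psmb9 and Tap1, a subunit of the peptide transporter for class I loading, start 226 bases apart on opposite strands of chromosome 17 (34187330 and 34187556 in RefSeq), and 5.79% of the annotated exon bases of Psmb9 are shared with Tap1. Whether the counts use strand is not given in the sources used here, so reads in such shared bases cannot be assigned to either gene. The same holds for Psmb8 with Gm20496 (14.7% of its exon bases), Psmb7 with Nek6 (11.8%) and Psmd9 with Gm26745 (25.5%), and Psme2b is a near-copy of Psme2.

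Core ring subunits and the activator gene Psme2 had the highest levels in each group. Compared per kilobase of transcript on TMM-scaled CPM (CPM after edgeR's correction for composition), the order in the stromal controls began with Psmb6 at 466.4 ± 85.0 (SD, n = 4), Psma7 at 439.8 ± 50.1, Psmb2 at 391.9, Psmb3 at 383.9 and Psme2 at 318.8. In the immune controls it began with Psma7 at 448.7 ± 153.8, Psme2 at 386.4 ± 142.6, Psmb6 at 328.3, Psmb3 at 316.1 and Psme1 at 254.4. The standard deviations are as large as the steps between these neighbours, so their order among themselves is not resolved. Catalytic partners were unequal on the same scale, since Psmb6 stood at 466.4 in the stromal controls while Psmb5 stood at 110.6 and Psmb7 at 47.42. Immunoproteasome genes held different ranks in the fractions. Psmb9 ranked 40th of the 50 members in the stromal controls at 33.71 and 13th in the immune controls at 138.5, and Psmb8 ranked 34th at 52.90 and 16th at 112.3. Psmb10 kept a similar level, at 124.2 and 114.5, and ranked 20th and 15th.

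Within the other roles the levels per kilobase spread widely. Among the ATPases Psmc5 was highest and Psmc6 lowest in all 4 groups (200.4 and 53.22 in the stromal controls, 102.5 and 35.71 in the immune controls). Of the other regulatory subunits Psmd4, a ubiquitin receptor, was highest at 204.5 and Psmd1, a scaffold subunit, lowest at 37.12 in the stromal controls, while Psmd3 was lowest in the immune controls at 18.03. Core chaperones ran from Psmg3 (14.19) to Psmg4 (57.55) and base chaperones from Psmd5 (13.76) to Psmd9 (25.74) in the stromal controls. Among the activators Psme4, the nuclear activator, was lowest at 4.95, and the inhibitor Psmf1 stood at 9.25. Psma8, the alpha subunit of male germ cells, had 167 reads over all libraries, at most 31 in any, and Psmb11, the catalytic subunit of thymic epithelium, had 8 reads with 13 libraries at 0 and 5 of the reads in immune control 4. A count of 0 allows up to 3 reads, or 0.111 to 1.13 CPM depending on the library, and this limit covers counting error only.

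Immune and stromal cells of unstretched skin were compared to ask which proteasome genes mark the sorted fraction without stretching. The immunoproteasome genes Psmb9 and Psmb8 were higher in the immune fraction, no constitutive core subunit was called, and 11 of the 17 regulatory particle genes were lower. Of 48 members tested, 5 were higher and 15 lower at an adjusted p under 0.05 (edgeR quasi-likelihood test, Benjamini-Hochberg over all genes tested), against 26.6% and 22.8% of all 15142 genes. The members' share called lower thus lay above that of all genes and the share called higher below it, and the median log2 fold change was -0.34 over members and 0.085 over all genes.

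Psmb9 stood at 40.94, 46.93, 29.13 and 65.32 TMM-scaled CPM in stromal controls 1 to 4 and at 163.9, 88.88, 241.2 and 255.2 CPM in immune controls 3 to 6. Every immune control lay above every stromal control, and immune control 4 was the lowest of its group. The log2 fold change was 2.13 ± 0.36 (SE), with an adjusted p of 0.000656 in the edgeR test. Psmb8 stood at 86.52, 95.20, 69.85 and 92.94 CPM in the stromal controls and at 218.8, 86.11, 232.8 and 193.3 CPM in the immune controls. On this scale immune control 4 fell within the stromal range and the other 3 lay above it, with a log2 fold change of 1.18 ± 0.30 and an adjusted p of 0.00716. The TMM correction set the size of immune control 4 at 4331457 against a total count of 2645421. Its values would thus be higher if scaled to the library total. Psmb10 stood at 149.5, 169.7, 163.5 and 168.6 CPM in the stromal controls and at 132.5, 70.65, 168.8 and 228.4 CPM in the immune controls, and the groups overlapped. Its log2 fold change of -0.026 ± 0.31 had no stable sign and was 0.12 without immune control 4.

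The constitutive counterparts did not pass the test, with log2 fold changes of -0.24 ± 0.27 for Psmb5, -0.42 ± 0.31 for Psmb6 and -0.58 ± 0.38 for Psmb7. Over the 14 constitutive core subunits 0 were called by edgeR, by DESeq2 or by limma-voom, and 0 had an unadjusted p under 0.05, against 56.2% of all genes, with a median of -0.077 and a range of -0.61 to 0.25. The regulatory particle had negative values in 16 of its 17 members, against 47.6% of all genes, with a median of -0.77, and 11 were called, 5 of the 6 ATPases and 6 of the 11 other subunits. Psmd3, a lid subunit, stood at 82.26, 126.7, 104.6 and 131.6 CPM in the stromal controls and at 44.49, 25.63, 38.79 and 45.97 CPM in the immune controls, without overlap. Its log2 fold change was -1.42 ± 0.25 with an adjusted p of 0.00082 in the edgeR test. Psmd11 (-0.885 ± 0.23), Psmd7 (-0.90 ± 0.29) and the ATPase Psmc2 (-1.22 ± 0.35) were also lower, and the 7 further regulatory genes called lay between -1.02 and -0.76. The call count of the regulatory particle depended on single libraries, at 4 without stromal control 2, 5 without immune control 5 and 6 without stromal control 4.

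Around the core, the inhibitor Psmf1 stood at 27.93, 39.77, 32.22 and 41.03 CPM in the stromal controls and 18.57, 5.77, 11.37 and 15.04 CPM in the immune controls. No immune control reached the lowest stromal control, and the log2 fold change was -1.38 ± 0.32 with an adjusted p of 0.00458 in the edgeR test. Psmd5, a chaperone of the regulatory base (-1.29 ± 0.34), Psme3, a nuclear activator subunit (-0.87 ± 0.275), and the core chaperone Psmg1 (-0.90 ± 0.28) were lower too. Beside Psmb8 and Psmb9, the genes called higher were Psme2b (1.18 ± 0.27), Psmg4 (0.82 ± 0.285) and Psme4 (0.60 ± 0.22). The activator genes Psme1 (0.46 ± 0.26) and Psme2 (0.37 ± 0.30) did not pass. Psme4 lost its call without any of 7 of the 8 libraries, immune control 3 being the exception, and Psmg4 without any but stromal control 3 and immune control 4. Groups did not overlap in 3 members higher and 17 lower, against 22.4% and 25.7% of all genes. Without 1 library the count called in either direction ran from 9 (without stromal control 2) to 22, with 11 without immune control 5 and 13 without stromal control 4. The share of all genes called was 42.7%, 42.4% and 44.8% without these 3 libraries in turn, against 49.4% with all. Without immune control 4, the library with the most receptor reads, 21 members and 53% of all genes were called.

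**Figure D1:**
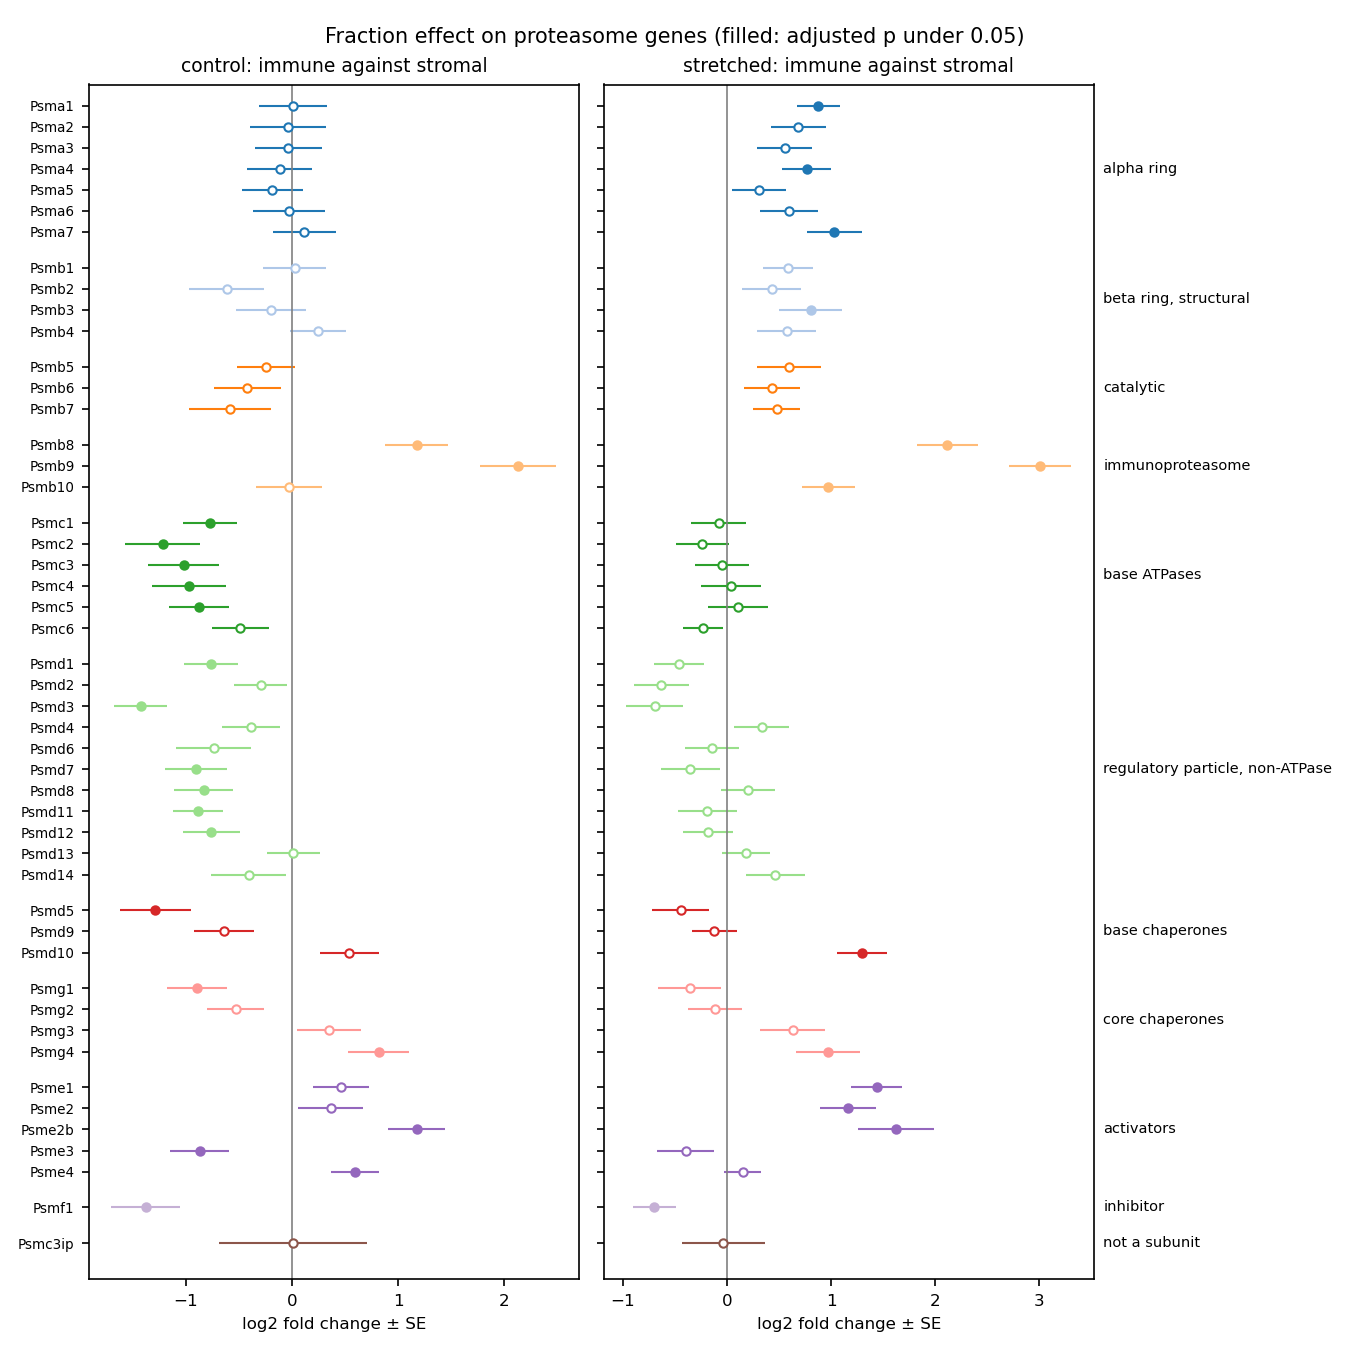
Log2 fold change (± SE) of each proteasome gene in the immune against the stromal fraction, in control skin (left) and stretched skin (right), on x axes of different range, with roles in colour and filled points for an adjusted p under 0.05. Psmb8 and Psmb9 lie to the right in both panels, and the filled points of the regulatory particle lie left of 0 in the control panel. Psma8 and Psmb11 are not drawn.

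The same comparison in stretched skin asks whether the fractions differ alike after stretching. All 3 immunoproteasome genes, the activator genes Psme1 and Psme2 and 4 of the 14 core subunits were higher in the immune fraction, and no regulatory particle gene was called by edgeR. Of 49 members tested, 13 were higher and 1 lower (edgeR, adjusted p under 0.05), against 23.9% and 25.1% of all 17116 genes, so the share called higher was near the background and the share called lower below it. The median log2 fold change was 0.33 over members and -0.063 over all genes. The stretched groups share no library with the control groups.

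Psmb9 stood at 33.93, 26.88, 24.10 and 21.59 CPM in stromal stretched 5 to 8 and at 223.3, 362.7, 176.4 and 175.3 CPM in immune stretched 1, 2, 7 and 8. The groups lay far apart, with a log2 fold change of 3.01 ± 0.30 and an adjusted p of 4.3e-05 in the edgeR test. Psmb8 stood at 79.03, 46.67, 42.87 and 42.22 CPM in the stromal and at 216.3, 360.2, 216.4 and 206.8 CPM in the immune libraries. Stromal stretched 5 and immune stretched 2 were the high libraries of their groups, which did not overlap, and the log2 fold change was 2.12 ± 0.29 with an adjusted p of 0.000362. Psmb10 stood at 126.4, 90.34, 56.88 and 81.08 CPM in the stromal and at 198.5, 227.4, 172.1 and 161.2 CPM in the immune libraries, again without overlap. Its log2 fold change of 0.97 ± 0.25 had an adjusted p of 0.0104 and one of 0.102 without the receptor-read libraries stromal stretched 7 and 8.

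Psme1 stood at 155.8, 136.6, 93.68 and 125.1 CPM in the stromal and at 367.3, 499.7, 338.1 and 309.1 CPM in the immune stretched libraries. All immune values exceeded all stromal ones (log2 fold change 1.44 ± 0.24, adjusted p 0.00118 by edgeR). Its partner Psme2 was higher by 1.16 ± 0.27 and its near-copy Psme2b by 1.62 ± 0.37. Psmd10, a base chaperone also known as gankyrin, was higher by 1.30 ± 0.24, with 26.36, 16.85, 13.94 and 20.02 CPM in the stromal and 49.05, 66.51, 51.08 and 41.28 CPM in the immune libraries. In the core, Psma1 (0.88 ± 0.205), Psma7 (1.03 ± 0.265), Psma4 (0.765 ± 0.24) and Psmb3 (0.805 ± 0.30) were called, and all 14 core subunits had positive values, against 48.0% of all genes, with a median of 0.59. The catalytic subunits Psmb5 (0.60 ± 0.31), Psmb6 (0.43 ± 0.27) and Psmb7 (0.48 ± 0.23) did not pass. Core chaperone Psmg4 (0.97 ± 0.31) and Psma8 (2.445 ± 0.78) were the other genes called higher, the second from at most 31 reads. Psma8 had 2, 0, 12 and 11 reads in the stromal and 17, 2, 30 and 31 in the immune libraries, and the groups overlapped. It lay below the filter on low counts between fractions of control skin and in stretched against control stromal cells. Its call was lost in 6 of 17 alternatives and is not taken as support. Only the inhibitor Psmf1 was lower, at 38.80, 25.67, 27.64 and 25.63 CPM in the stromal and 21.16, 16.42, 20.97 and 20.93 CPM in the immune libraries (-0.70 ± 0.21, adjusted p 0.0186 by edgeR).

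The regulatory particle in stretched skin had 11 of 17 negative values, against 52.0% of all genes, and a median of -0.145. By edgeR 0 were called and 2 were lower at an unadjusted p under 0.05, against 29.4% of all genes, Psmd3 (-0.69 ± 0.27) and Psmd2 (-0.63 ± 0.27), while DESeq2 called 1 and limma-voom 2 lower. Groups did not overlap in 12 members higher and 1 lower, against 26.6% and 21.8% of all genes. Without stromal stretched 7 and 8 the members called came to 6, Psmb9, Psmb8, Psma8, Psme1, Psmd10 and Psmf1, with no core subunit among them, and the share of all genes called was 30.4% against 49% with them. Without stromal stretched 5 the members called came to 22, 11 of them core subunits, against 45.8% of all genes. Without immune stretched 2, the library with the most neutrophil marker reads, they came to 13, against 46% of all genes. With offsets for transcript length and GC content 0 core subunits were called and the members' median was 0.007, while the 3 immunoproteasome genes were called.

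Ratios of transcripts within a library do not depend on the scale factor, so each immunoproteasome gene was set against the constitutive gene it replaces. The ratios are of counts, not per length, so they compare libraries and not the levels of both genes: per kilobase Psmb8 stood at 52.90 and Psmb5 at 110.6 in the stromal controls, and at 32.37 and 59.63 in the stretched stromal libraries. The ratio of Psmb8 to Psmb5 was higher in every immune library than in any stromal one. The log2 ratio of their counts was -0.03, -0.23, -0.64 and 0.07 in stromal controls 1 to 4 and 1.05, 1.05, 1.56 and 1.11 in immune controls 3 to 6, and it was -0.085, -0.045, 0.53 and -0.32 in stromal stretched 5 to 8 and 1.68, 1.695, 1.05 and 1.55 in immune stretched 1, 2, 7 and 8. It was 2.64-fold higher in the immune fraction of control skin and 2.78-fold higher in that of stretched skin. Psmb9 to Psmb6 gave log2 ratios of -3.91 to -2.155 in the stromal controls, -1.22 to 0.093 in the immune controls, -3.33 to -2.39 in the stromal stretched and -0.965 to -0.02 in the immune stretched libraries. That ratio was 5.96-fold and 5.61-fold higher in the immune fraction, also without overlap. Psmb10 to Psmb7 differed less, by 1.56-fold in control skin with overlap and 1.41-fold in stretched skin without.

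For each fold without overlap the two-sided exact permutation p was 0.0286, the smallest that 4 against 4 libraries allow, and 0.0686 after Benjamini-Hochberg adjustment over the 12 ratio tests. No ratio thus passed at an adjusted p under 0.05 in the exact permutation test, either between fractions or between stretched and control libraries. The stromal log2 differences, stretched minus control, were 0.23 (p = 0.457) for Psmb8 to Psmb5, 0.089 (p = 0.914) for Psmb9 to Psmb6 and -0.34 (p = 0.0571) for Psmb10 to Psmb7, by exact permutation. In the immune fraction they were 0.30 (p = 0.229), 0.002 (p = 0.971) and -0.49 (p = 0.20), again by exact permutation.

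**Figure D2:**
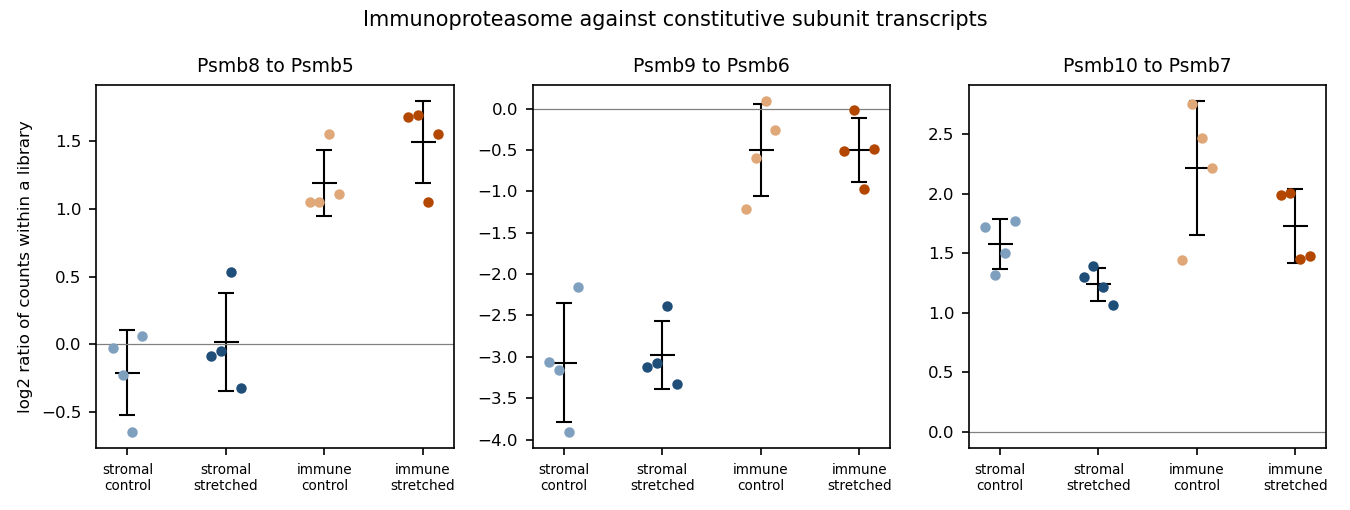
Log2 ratio of the counts of each immunoproteasome gene to its constitutive counterpart (y axis) in each library by group, with the mean and SD of 4 libraries as bars. The immune groups lie above the stromal groups without overlap for Psmb8 to Psmb5 and Psmb9 to Psmb6, and overlap with them in control skin for Psmb10 to Psmb7.

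Stretched and control stromal cells were compared to ask how stretching bears on proteasome transcripts of non-immune skin cells. Log2 fold changes were negative in 45 of 48 members tested, against 49.4% of all 16074 genes, with a median of -0.575 over members and 0.012 over all genes. By edgeR 2 passed the test and fell, Psme1 and Psmb10, against 2.93% of all genes called lower, and at an unadjusted p under 0.05 the members lower were 28, against 14.7%. In the core all 14 subunits had negative values, with a median of -0.71 and a range of -0.91 to -0.48, and 13 of them at an unadjusted p under 0.05. In the regulatory particle 15 of 17 were negative, with a median of -0.42 and 3 at an unadjusted p under 0.05, the ATPases Psmc5 and Psmc3 and the ubiquitin receptor Psmd4. The difference between core and regulatory particle was not tested, and this comparison shares its control and stretched libraries with the fraction comparisons above.

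Psme1 stood at 212.4, 228.2, 210.5 and 225.4 CPM in stromal controls 1 to 4 and at 155.8, 136.6, 93.68 and 125.1 CPM in stromal stretched 5 to 8. The controls were tight and every stretched library lay below them, a log2 fold change of -0.77 ± 0.18 with an adjusted p of 0.0466 in the edgeR test. Psmb10 stood at 149.5, 169.7, 163.5 and 168.6 CPM in the controls and 126.4, 90.34, 56.88 and 81.08 CPM in the stretched libraries. It fell in all 4 stretched libraries, least in library 5, by a log2 fold change of -0.87 ± 0.22 with an adjusted p of 0.0494. Psme2, the partner of Psme1, stood at 316.1, 356.3, 321.7 and 232.5 CPM in the controls and 218.3, 190.0, 114.4 and 151.2 CPM in the stretched libraries, without overlap. Its log2 fold change was -0.86 ± 0.23 and its adjusted p of 0.0522 missed the threshold.

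The other catalytic subunits lay close to Psmb10 without passing the edgeR test. Psmb8 differed by -0.70 ± 0.22 (adjusted p 0.0793) and Psmb9 by -0.77 ± 0.245 (0.081), both with overlapping groups. Psmb5 stood at 88.20, 111.4, 109.2 and 88.80 CPM in the controls and 83.80, 48.14, 29.63 and 52.86 CPM in the stretched libraries, a difference of -0.89 ± 0.27 (adjusted p 0.071) without overlap. Psmb6 differed by -0.775 ± 0.255 and Psmb7 by -0.56 ± 0.23. Next by p after Psme2 were the ring subunits Psmb1 (-0.76 ± 0.21, adjusted p 0.055) and Psma7 (-0.805 ± 0.23, adjusted p 0.0645). The 4 core chaperones were all negative, from Psmg3 at -0.94 to Psmg2 at -0.68. The 3 positive members were Psmd1 (0.087), Psme3 (0.039) and Psmd2 (0.032), 2 large scaffold subunits and an activator. Groups did not overlap in 9 members lower, against 10.2% of all genes.

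**Figure D3:**
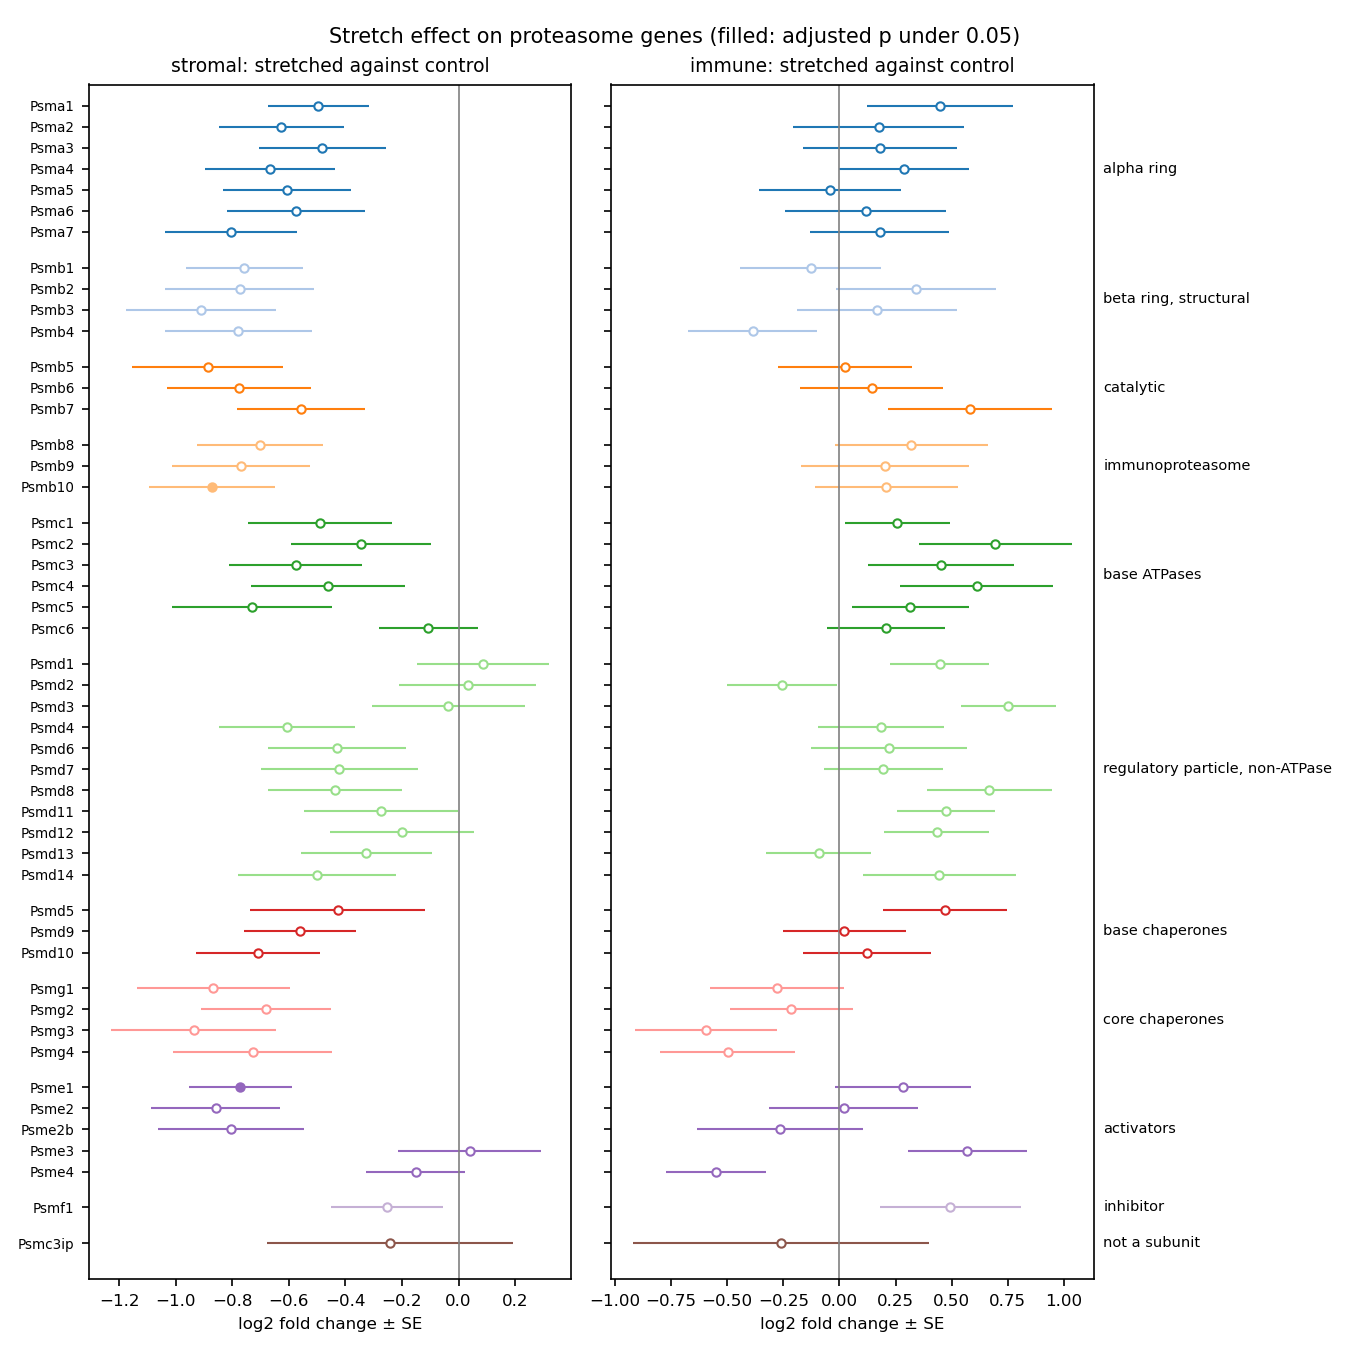
Log2 fold change (± SE) of each proteasome gene in stretched against control skin, in the stromal (left) and immune fraction (right), on x axes of different range, with filled points for an adjusted p under 0.05. The stromal points lie left of 0 except Psmd1, Psmd2 and Psme3, with Psmb10 and Psme1 filled, and most immune points lie right of 0 with none filled. Psma8 and Psmb11 are not drawn.

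How many stromal members were called rested on the tool and on single libraries. DESeq2 called 16 lower, 7 of them core subunits, and limma-voom 29, with all 14 core subunits. These tools called 14.4% and 22.4% of all genes, in either direction. Stromal stretched 5 was the highest of its group in most members, and without it 23 of 49 members were called, 11 of them core subunits, against 9.54% of all genes. Without stromal control 4 only Psme2 was called (-0.96, adjusted p 0.042), when 4.29% of all genes were called. Without any of the other 6 libraries no member was called by edgeR, nor was any other gene, except 2 genes without stromal stretched 6. Without both stromal stretched 7 and 8 no gene of the table was called and the members' median was -0.38.

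Transcript length moved with this difference. Over all 16071 genes with a length the Spearman correlation of length with the stromal log2 fold change was 0.44, shorter transcripts being lower, and among the 48 members it was 0.78, in both cases across genes of the same libraries. The members are short, with a median transcript of 1408.5 bases against 2727 over all genes tested. Within bins of transcript length that hold equal numbers of genes, 43 of 48 members lay below the median of their bin. For the bin of 892 to 1408 bases, which holds 18 members, the median over all genes was -0.49 and 16 of the members lay below it. With offsets that remove the trends on length and GC content in each library, 47 of 48 members were negative, the median was -0.32 and 0 members were called by edgeR, when 0.0249% of all genes were.

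**Figure D4:**
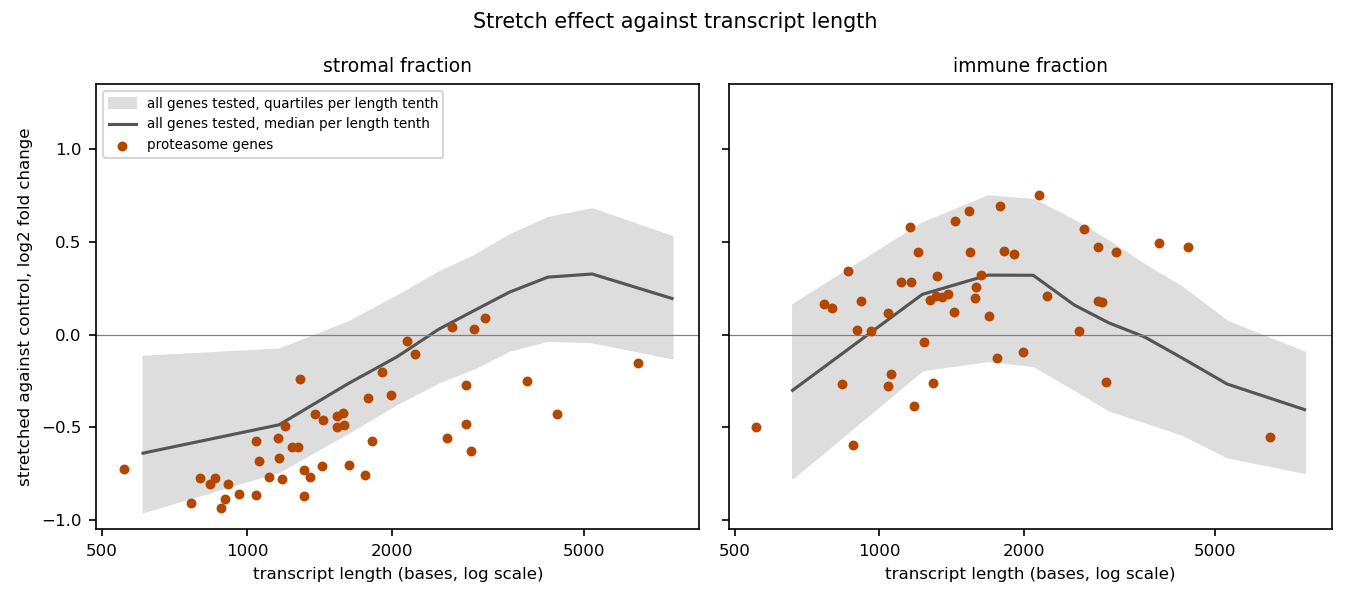
Log2 fold change in stretched against control skin against transcript length (log scale), for proteasome genes (points) and all genes tested (line, median per bin of length, shaded between quartiles). In the stromal panel 43 of 48 points lie below the median of their length bin, and in the immune panel 23 of 49 do.

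In the immune fraction the same comparison showed no proteasome gene past the test, and most members had positive values. Of 49 members tested 37 were positive, against 48.7% of all 14183 genes, with a median of 0.20 against -0.022. Among genes of similar length the members did not stand out, since 23 of 49 lay below the median of their length bin. That median over all genes was 0.22 at 958 to 1465 bases (18 members) and 0.32 at 1466 to 1889 bases (9 members). It was -0.30 at 48 to 957 bases (8 members). By edgeR 0 members were called, as were 0 genes in all (0%), and 3 members had an unadjusted p under 0.05, against 17.4% of all genes, Psmd3 (0.75 ± 0.21), Psmd8 (0.67 ± 0.28) and Psme4 (-0.55 ± 0.22). The next by p were Psmd11 (0.475 ± 0.22) and Psme3 (0.57 ± 0.26). DESeq2 and limma-voom each called 1, Psmd3, a lid subunit, against 5.51% and 6.26% of all genes, so the members' share lay below the background.

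Psmd3 stood at 44.49, 25.63, 38.79 and 45.97 CPM in immune controls 3 to 6 and at 68.04, 62.36, 85.29 and 76.55 CPM in immune stretched 1, 2, 7 and 8. Every stretched library exceeded every control, and the adjusted p was 0.165 by edgeR, 0.0173 by DESeq2 and 0.0444 by limma-voom. Psmd8, another lid subunit, stood at 168.0, 79.88, 178.9 and 199.2 CPM in the controls and 304.8, 275.0, 277.0 and 242.7 CPM in the stretched libraries, also without overlap. Its adjusted p was 0.258 by edgeR. Groups did not overlap in 7 members higher (Psmd3, Psmd8, Psmd11, Psmd1, Psmd12, Psme3 and Psmb7), against 8.55% of all genes, and in 0 lower (3.14%). Of those 7, 5 belong to the regulatory particle, where 15 of 17 members were positive with a median of 0.43.

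None of the catalytic genes passed the test in the immune fraction. Log2 fold changes were 0.32 ± 0.34 for Psmb8, 0.20 ± 0.37 for Psmb9, 0.21 ± 0.32 for Psmb10, 0.024 ± 0.30 for Psmb5, 0.14 ± 0.32 for Psmb6 and 0.58 ± 0.365 for Psmb7, and 0.285 ± 0.30 for Psme1 and 0.018 ± 0.33 for Psme2. Psmb5 and Psme2 changed sign under RLE scale factors. All 4 core chaperones were negative, from Psmg3 at -0.60 to Psmg2 at -0.21. Immune control 4 was the lowest control in most members, such as Psmb7 at 10.39 CPM against 30.39 to 49.17 CPM in the other controls, and without it the members' median was -0.016. With any 1 library left out 0 members were called, against 0% to 0.305% of all genes.

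**Figure D5:**
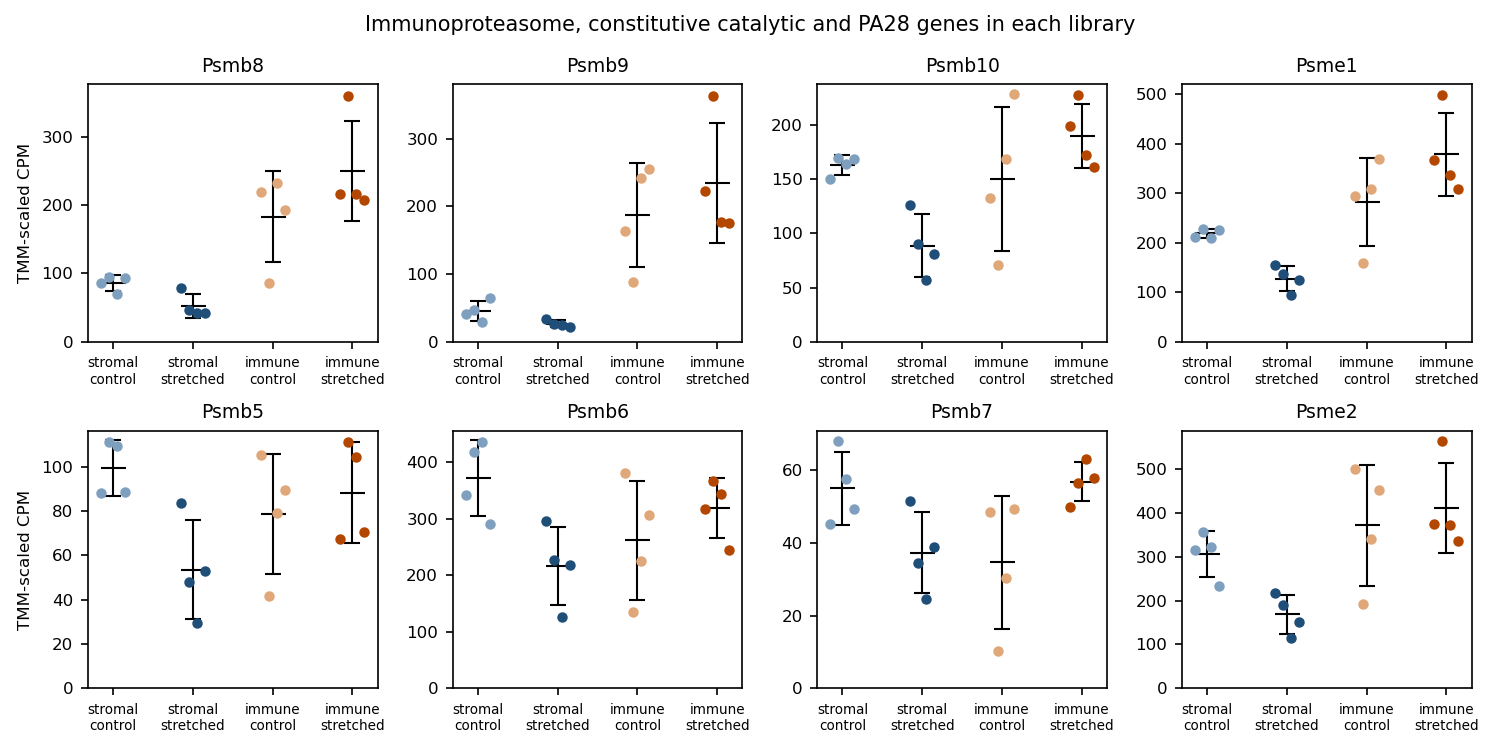
TMM-scaled CPM (y axes, linear, from 0) of the immunoproteasome genes, their constitutive counterparts and Psme1 and Psme2 in each of the 16 libraries, with the mean and SD of 4 libraries as bars. The stretched stromal libraries lie below the stromal controls for Psmb10, Psme1, Psme2 and Psmb5, and the immune libraries lie above the stromal ones for Psmb9 in both treatments.

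The difference between both stretch effects, immune minus stromal, was tested in a fit over all 16 libraries. It was positive in 47 of 49 members, against 51.1% of all 18295 genes, with a median of 0.93 against 0.028. By edgeR 0 members were called, as were 0 genes in all (0%), and 26 members had an unadjusted p under 0.05, all positive, against 13.6% of all genes positive at that level. DESeq2 called 2 (Psme1 and Psmd8) and limma-voom 10, against 8.88% and 7.94% of all genes. The smallest p were those of Psme1 (1.20 ± 0.37, adjusted p 0.0986 by edgeR), Psmd8 (1.25 ± 0.40, 0.106), Psmb10 (1.21 ± 0.43, 0.128), Psmc5 (1.20 ± 0.435, 0.132) and Psma7 (1.13 ± 0.42, 0.137). Transcript length moved with the difference too (Spearman correlation -0.316 over all genes). In the bins of 802 to 1309 and 1310 to 1751 bases, with 17 and 12 members, the median over all genes was 0.64. Over all bins 6 of 49 members lay below the median of their bin. With length and GC offsets the members' median was 0.64, against 0.091 over all genes. There 0 genes of the table were called and 16 members had an unadjusted p under 0.05 by edgeR. The share of all genes at that unadjusted level was not computed with offsets.

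By role the difference had medians of 1.06 over the 14 core subunits, 1.16 over the immunoproteasome genes, 0.92 over the regulatory particle and 0.57 over the core chaperones. The other catalytic genes and the activator gene Psme2 ran from Psme2 (1.01 ± 0.43) to Psmb7 (1.27 ± 0.495). Between them lay Psmb5 (1.055 ± 0.44), Psmb6 (1.06 ± 0.445), Psmb9 (1.10 ± 0.48) and Psmb8 (1.16 ± 0.435). The activator genes Psme3 (0.695 ± 0.42) and Psme2b (0.67 ± 0.47) lay lower. The 2 negative members were Psme4 (-0.20 ± 0.26) and Psmd2 (-0.10 ± 0.38). Under RLE scale factors the median of all genes moved to -0.19 and that of the members to 0.76. Without the 3 receptor-read libraries the members' median was 0.405, against 0.098 over all genes. There 0 genes of the table were called and 4 members had an unadjusted p under 0.05 by edgeR. The share of all genes at that unadjusted level was not computed there. Without immune control 6 edgeR called Psmb10 and Psme1 (adjusted p 0.0451 for both), against 7.62% of all genes.

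Other genes of the pathway were taken from 6 lists. Among 9 tested genes of other proteasome parts, Sem1, a small lid subunit, fell in stretched stromal cells (-1.06 ± 0.245, adjusted p 0.046 by edgeR), a call lost in 10 of 17 alternatives (adjusted p up to 0.573). Sem1 stood at 308.4 to 445 CPM in the stromal controls and 106.4 to 231 CPM in the stretched libraries, and it was higher in the immune fraction of control (1.94 ± 0.30) and stretched skin (2.08 ± 0.39). Pomp, the maturation factor of the core, differed by -0.77 ± 0.24 in stretched stromal cells without passing (adjusted p 0.0779) and was higher in the immune fraction of stretched skin (1.30 ± 0.28). The ubiquitin receptor Adrm1 was lower in the immune fraction of control skin (-1.335 ± 0.28) and differed by 1.03 ± 0.265 in stretched immune cells without passing (adjusted p 0.156).

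All 8 regulators of proteasome genes had positive values in stretched stromal cells, where 49.4% of all genes were negative. Their median was 0.34, against 0.012 over all genes, and they were not set against genes of similar length. Of these 8, 1 rose, Mafk, a small Maf partner of Nfe2l1 and Nfe2l2 (1.07 ± 0.18, adjusted p 0.0424 by edgeR). Its value stayed positive and its call was lost in 10 of 17 alternatives (adjusted p up to 0.528). Mafk differed by 1.76 ± 0.25 in stretched immune cells, where its adjusted p was 0.134, and was lower in the immune fraction of control (-1.76 ± 0.28) and stretched skin (-1.14 ± 0.205). Nfe2l1, the activator of proteasome genes when proteasome capacity falls short, differed by 0.39 ± 0.19 in stretched stromal cells (adjusted p 0.214) and by -0.97 ± 0.26 in stretched immune cells (adjusted p 0.163). It was lower in the immune fraction of stretched skin (-1.22 ± 0.225), where Nfe2l2 was higher (1.32 ± 0.36).

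Of 11 interferon and immunoproteasome inducers, 6 were higher and 1 lower in the immune fraction of control skin, with 3 and 2 in stretched skin, against 26.6% and 22.8% of all genes in control and 23.9% and 25.1% in stretched skin. Nlrc5, the transactivator of class I genes, was higher by 3.42 ± 0.27 and 2.05 ± 0.36, and Irf8 by 3.75 ± 0.485 and 4.445 ± 0.28, in control and stretched skin. Irf1, which induces Psmb9 and Tap1 in other settings, was lower in the immune fraction in both (-1.31 ± 0.30 and -0.98 ± 0.30). In stretched stromal cells Jak2, a kinase of the interferon gamma receptor, rose (0.98 ± 0.19, adjusted p 0.0424 by edgeR), a call lost in 10 of 17 alternatives (adjusted p up to 0.681). Nlrc5 (0.88 ± 0.27, adjusted p 0.0759) and Stat2 (0.71 ± 0.23, adjusted p 0.0875) did not pass. Over the 11 inducers 6 values were positive and 5 negative in stretched stromal cells, from -0.30 to 0.98. Their median was 0.069, against 0.012 over all genes. Psmb8, Psmb9 and Psmb10 had negative values in the same libraries, and how they relate to the inducers was not tested.

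Among 11 genes of class I peptide loading, Tap1 was higher in the immune fraction of control skin (1.16 ± 0.29), and the chaperones Calr (-1.875 ± 0.33) and Pdia3 (-2.15 ± 0.40) were lower. In stretched skin H2-K1 (1.32 ± 0.28), H2-D1 (1.30 ± 0.30) and B2m (1.25 ± 0.32) were higher in the immune fraction. In stretched against control skin 0 of the 11 were called by edgeR in either fraction, against 4.98% of all genes in the stromal and 0% in the immune comparison. At an unadjusted p under 0.05 by edgeR there were 1 stromal and 3 immune values, all positive. Of all genes, 1951 of 16074 in the stromal and 1261 of 14183 in the immune comparison were positive at that level. Of the ubiquitin and activating enzyme genes, Rps27a differed by -1.04 ± 0.275 in stretched stromal cells (adjusted p 0.0517), and Uba6 was higher in the immune fraction of control skin (1.34 ± 0.24). Among the shuttle factor and segregase genes, Nploc4 was lower in the immune fraction of stretched skin (-0.90 ± 0.19).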

How the data were processed

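Bulk RNA-seq libraries of 16 samples were grouped by sorted fraction and treatment in the labels. FastQC 0.11.9 quality checks and STAR alignment (no version given) to mm10 are named per the submitters' processing notes. The deposited table holds raw counts per Ensembl gene. Not given in the sources used here are the counting tool, its strand setting and the annotation. Of 55487 IDs, 55394 matched GENCODE M21 (GRCm38, the assembly of mm10), which supplied symbols, coordinates and lengths of the transcript with the longest coding sequence. Members, lists and tests were chosen with earlier results of these data known.

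Each comparison of groups used its 8 libraries, and the difference of effects all 16, in edgeR 4.0.16 under R 4.3.3, after filterByExpr at a total of at least 15 and a minimum count of 10, with TMM factors, the quasi-likelihood F test and Benjamini-Hochberg adjustment over all genes tested, with a threshold of 0.05. Standard errors were derived from the F statistic. CPM of single genes are TMM-scaled, and sums over marker lists are scaled to the library total. Ratios used counts plus 0.5 and a two-sided exact permutation test over 70 splits. Named were the 3 immunoproteasome genes, their counterparts, Psme1 and Psme2, up to 8 called members a direction (with under 5 called, the 5 of smallest p), the highest and lowest member per kilobase in each role, members under the filter, and up to 3 genes a pathway list. Outside this rule, other members and pathway genes were named after their values were seen.

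Alternatives were RLE factors, DESeq2 1.42.0, limma-voom (limma 3.58.1) with quality weights, no filter, at least 50 reads in 4 libraries, length and GC offsets (splines with 4 degrees of freedom, prior count 2), a joint fit of the 16 libraries, a block on the number in the title, omission of libraries that stand apart, omission of each library, and a ratio pseudocount of 5. The members' median, counts by role and another transcript length were followed as alternatives chosen after seeing the data. Counts were simulated with 200 genes changed, 100 by 2-fold and 100 by 4-fold, and all others unchanged. The test recovered 26.5% of 2-fold and 84% of 4-fold changes in the stromal design, 0% and 41.4% in the immune design and 0% and 19.4% in the difference. Between fractions it recovered 5.26% and 51.1% in control skin and 8.33% and 60.4% in stretched skin. In the real data 49.4% and 49% of all genes were called between fractions. Adjusted p-values depend on that share, so the simulated recovery between fractions does not carry over to these data. Libraries within a group differed by 25.1 chi-square per degree of freedom or more, and none was thus a copy. Reads amplified by PCR and not tagged by molecular identifiers are not independent, and floors therefore cover only counting error. The result of 1 gene of the pathway lists is not reported here.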

Additional observations from a re-analysis of the deposited data

Results flagged for a closer look

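Of 64 sets of 4 libraries examined, 6 held a library set apart from the other 3 by a gap that chance gives in about 1 in 20 such sets. Psmb8 stood at 79.03 CPM in stromal stretched 5 against 42.22 to 46.67 CPM in the other stretched stromal libraries, and Psmf1 at 38.80 CPM in the same library against 25.63 to 27.64 CPM. In immune stretched 2, the library with the most neutrophil marker reads, Psmb8 reached 360.2 CPM against 206.8 to 216.4 CPM, Psme2 reached 564.7 CPM against 336.9 to 373.9 CPM, and Psmf1 stood low at 16.42 CPM against 20.93 to 21.16 CPM. The TMM correction set the size of this library at 4811076 against a total count of 7018743, which raises all its TMM-scaled values. Gaps of single genes were examined on the TMM scale only. The log2 ratio of Psmb8 to Psmb5 was 1.556 in immune control 5 against 1.049 to 1.114 in the other immune controls. The part of cell makeup in these values was not tested.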

How the results depend on the processing

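Counts of members called moved most in stretched against control stromal cells, from 2 by edgeR to 1 under RLE factors, 16 by DESeq2, 29 by limma-voom, 8 with no filter, 6 with the stricter filter and 0 with length and GC offsets, with all 16 libraries in 1 fit, with the replicate block or without the receptor-read libraries, and they ran from 0 to 23 with each library left out in turn. The share of all genes called moved as well, from 4.98% to 4.21%, 14.4%, 22.4%, 5.16%, 11.6%, and 0.0249% with offsets and 0% in the other 3, and from 0% to 9.54% over omissions. In the immune fraction DESeq2 and limma-voom each called 1 (5.51% and 6.26% of all genes) where edgeR called 0. Omission of each library gave 0 to 0 (0% to 0.305% of all genes). For the difference of effects DESeq2 called 2 and limma-voom 10 (8.88% and 7.94% of all genes), with 0 to 2 over omissions (0% to 7.62%). Between fractions the omissions gave 9 to 22 in control skin (42.4% to 53% of all genes) and 10 to 22 in stretched skin (40.1% to 46%). In stretched skin limma-voom called 23 (57.8% of all genes) and omission of the receptor-read libraries left 6 (30.4%). In all these the cause was not tested. Psmb9, Psmb8, Psme1 and Psmd10 kept their calls in stretched skin in all 18 alternatives, and Psmb9 kept its call in control skin in all 17, while Psmb8 there lost it with the replicate block (0.86, adjusted p 0.103 by edgeR). The 12 ratio differences moved by less than 1 SD between libraries under every alternative run, and no adjusted p was computed for these alternatives. Those of Psmb9 to Psmb6 between stretched and control libraries, near 0, lay from -0.189 to 0.394 in the stromal and from -0.239 to 0.198 in the immune fraction over omissions.

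Same-numbered stromal and immune libraries correlated from -0.121 to 0.162 in their deviations from the group means, and of 8 numbers only 1 matched its own best, which does not show that the numbers pair the samples, and the labels do not say. The replicate block gave 0 members called in stretched against control skin in both fractions (0% of all genes) and in their difference (0.0109%). Between fractions it gave 17 of 49 in control skin, against 39.4% of all genes, and 11 of 49 in stretched skin, against 26.1%. It moved the members' median to -0.80 in the stromal and 0.69 in the immune comparison and to 1.45 in their difference. The medians over all genes were -0.052, 0.105 and 0.195 in turn.

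Some small values changed sign. In stretched against control immune cells Psmb9 was -0.224 by limma-voom, -0.025 with offsets, -0.016 without immune control 4 (the receptor-read library) and -0.137 without immune stretched 2 (the neutrophil-rich library). With each library left out in turn it ran from -0.137 to 0.335. Psmb10 was -0.084 by limma-voom, -0.015 with offsets and -0.008 without immune control 4 (-0.008 to 0.406 over omissions), and Psmb6 -0.053 without that library (-0.053 to 0.381). Psmb5 was -0.001 under RLE factors, -0.002 by DESeq2, -0.135 by limma-voom, -0.020 with the stricter filter, -0.089 with offsets, and -0.166, -0.148 and -0.077 without immune control 4, immune stretched 2 and immune stretched 7 (up to 0.195 without another). Psme2 was -0.006 under RLE factors and by DESeq2, -0.213 by limma-voom, -0.027 with the stricter filter, -0.043 with offsets, and -0.180, -0.033 and -0.219 without immune control 4, immune control 5 and immune stretched 2 (up to 0.197). Between fractions of control skin Psmb10 was 0.004 under RLE factors and by DESeq2, 0.164 by limma-voom, 0.14 with the stricter filter, 0.259 with offsets and 0.119 without immune control 4 (-0.327 to 0.119 over omissions). With offsets Psmb6 was -0.095 and Psmb7 -0.082 between fractions of stretched skin. The ubiquitin-activating gene Uba6 was -0.036 with the replicate block and -0.088 without the receptor-read libraries in the stromal comparison, 0.004 with offsets in the immune one and 0.230 with offsets in the difference.

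Immune controls were the shallowest group, at 2645421 to 6662268 counts, and how far depth limits the immune comparisons was not tested. Lengths of the shortest transcript with the same coding sequence differ for 4 members (Psmd8, Psmd11, Psmg3 and Psmf1).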
